A study of Homo sapiens with 20 samples.

Results

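The p53 target genes described here are a list of 33 genes that p53 is known to switch on, taken by name, of which 31 had a row among the 23368 genes of the deposited count tables. TIGAR and SUSD6 had no row under these names. Their RNA was measured by poly(A) RNA-seq in 20 libraries of Panc1, a pancreatic ductal carcinoma line with mutant p53, and A549, a lung adenocarcinoma line with wild-type p53. Each line was measured in 4 conditions: an siRNA against KLF10 with TGFβ (siKLF10+TGFβ), that siRNA without TGFβ (siKLF10), TGFβ without it (TGFβ), and a control siRNA (siCont). There were 3 Panc1 and 2 A549 libraries of each condition. The TGFβ dose was 5 ng/ml over 72 h, and the labels name no siRNA for the TGFβ libraries. Every sample, controls included, also carries a label that names SV40 large T antigen, a viral protein that binds and inactivates p53, as the means of immortalization. Large T was not measured here. Mutant and wild-type p53 were each represented by 1 line, so p53 status and every other difference between the lines cannot be told apart.

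The transcription factor p53 is held at a low level by the ubiquitin ligase MDM2, is released from it by DNA damage and other stress, and then binds response elements near its target genes. The targets halt the cell cycle, repair DNA, adjust metabolism or start cell death, and some of them, MDM2 first, feed back on p53 itself. Missense mutant p53 has generally lost this binding. Several targets also answer to other factors; CDKN1A is switched on by TGFβ through SMAD proteins, and GDF15 and SESN2 by the stress factor ATF4. KLF10 is a zinc-finger repressor that TGFβ induces.

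The promoters of the members were searched for the p53 response element, which is a pair of 10-base repeats. RefSeq windows (build GRCh38.p14) of 250 bases before to 50 after each gene's start were searched on both strands, with up to 3 mismatches in 20 bases and with the 4 fixed bases, a C and a G in each repeat, kept. A window was held for 28 of the 33 listed genes and not for GADD45A, TNFRSF10B, TP53INP1, PHLDA3 and RRM2B. Of these 28, 8 held a match, against 1.37% of all 27305 genes with a window. Those with the fewest mismatches are shown because they are closest to the letters that p53 recognises; capitals mark the element.
DDB2: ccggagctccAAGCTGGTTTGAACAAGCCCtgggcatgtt
AEN: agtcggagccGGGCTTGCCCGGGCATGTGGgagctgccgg
FAS: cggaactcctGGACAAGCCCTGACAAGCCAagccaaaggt
MDM2: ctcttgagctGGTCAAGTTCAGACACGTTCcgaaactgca
The DDB2 stretch lies at chr11:47214959-47214998 and has 1 mismatch. Each of the others has 2, and they lie at chr15:88621296-88621335 for AEN, chr10:88991299-88991338 for FAS and chr12:68808913-68808952 for MDM2. All 4 are on the plus strand. FDXR, GDF15, RPS27L and SESN1 held a match with 3 mismatches. A match describes letters in a window and is not a binding site, and a window without one says only that these letters are not in it.

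Reads counted to genes came to between 11152625 and 15571367 for a Panc1 library and between 6846761 and 19070551 for an A549 library. Reads that the counting assigned to no gene made up 33.6 to 36.9% in Panc1 and 57.6 to 60.1% in A549. The share is of reads counted to a gene, to none or as ambiguous. Levels are CPM, counts scaled to a common library size by TMM, within a line unless said otherwise, and errors of means are SD. A gene was called where edgeR's quasi-likelihood test gave a Benjamini-Hochberg adjusted p under 0.05 over all genes tested, and every adjusted p below is from that test. Log2 fold changes are given ± SE. The labels do not say that libraries of 1 group were grown as separate cultures, and p-values therefore cover the spread of these libraries alone, which could be technical.

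The targeted gene, KLF10, averaged 102 ± 1.69 CPM in siKLF10+TGFβ, 80.4 ± 2.76 in siKLF10, 195 ± 9.66 in TGFβ and 136 ± 5.06 in siCont Panc1 libraries. In A549 it averaged 146 ± 5.90 CPM in siKLF10+TGFβ, 105 ± 4.90 in siKLF10, 179 ± 0.305 in TGFβ and 108 ± 2.48 in siCont libraries. It was therefore lower after siKLF10 in Panc1, both without TGFβ (log2 fold change −0.76, adjusted p = 2.58e-09) and with it (−0.94, adjusted p = 4.96e-11). In A549 it was lower only in the comparison with TGFβ (−0.29, adjusted p = 0.00775), and the siKLF10 libraries without TGFβ overlapped siCont (−0.05, adjusted p = 0.743). For A549 the word siKLF10 below gives the label of the libraries and not a measured knockdown.

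The Panc1 siCont libraries stood apart in KRT5 and in a few other transcripts. Panc1 siCont A, B and C had 60.6, 21.8 and 22.3 CPM of KRT5, a keratin of basal epithelium, against 5.33 to 9.52 CPM for the remaining 9 Panc1 libraries. The summed level of 5 basal epithelial markers, none at 0, was 31.0 to 78.5 CPM in siCont and 9.42 to 18.1 CPM in the other Panc1 libraries, and most of it was KRT5; KRT14 was too low to test, KRT15 overlapped between siCont and both siKLF10 and TGFβ, and KRT6A overlapped between siCont and TGFβ. CDKN2A, whose alternative product ARF inhibits MDM2 and whose locus both lines are known to lack, had 56, 18 and 39 counts in Panc1 siCont against 0 to 6 in the other Panc1 libraries and 0 to 2 in A549. These transcripts move with every comparison against Panc1 siCont, and their part in those results was not tested. The comparisons of siKLF10+TGFβ with TGFβ and with siKLF10 do not set these libraries against others. The filter, scaling and estimate of spread in those comparisons still drew on all Panc1 libraries, siCont included. Of 5 lung epithelial markers, whose sum was 0.266 to 0.589 CPM in Panc1 siCont and 7.83 to 9.10 CPM in A549 siCont, 3 were at 0 in Panc1 siCont and 1 in A549 siCont. Of 6 pancreatic markers 4 were at 0 in siCont of each line, and the sum, 226 to 243 CPM in Panc1 siCont and 38.0 to 38.5 CPM in A549 siCont, lay in the remaining genes. In bulk RNA, fewer cells of a type and less RNA per cell cannot be told apart.

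Without TGFβ or siKLF10, most p53 targets that differed between the lines were lower in Panc1. Of 31 members, 10 were higher and 15 lower in Panc1 siCont than in A549 siCont, with a median log2 difference of −0.27, beside −0.07 over all genes. Such a share is near the background, since 81.9% of all genes tested differed between the lines in this comparison. Averaged over the 4 conditions, 8 were higher and 21 lower (median −0.63, against −0.07 over all genes), where 90.2% of all genes tested were called. CPM in this account are scaled over all 20 libraries. The share of reads assigned to no gene differed between the lines as given above, and its part in these differences was not tested.

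Several death signalling genes differed widely between the lines. TNFRSF10B, the death receptor DR5, stood at 29.3, 25.7 and 27.7 CPM in Panc1 siCont and at 267 and 261 CPM in A549 siCont. No Panc1 library of any condition exceeded 29.3 CPM, while A549 reached 796 and 702 CPM in siKLF10+TGFβ. The difference was −3.26 ± 0.078 in siCont (adjusted p = 1.07e-27). CYFIP2, a p53-induced component of the WAVE actin-regulating complex, had 28, 16 and 18 counts in Panc1 siCont and 1049 and 849 counts in A549 siCont. SPATA18, which acts in mitochondrial quality control, was near absent in Panc1, with 0 to 2 counts in each of the 12 libraries, against 36 to 108 counts in the A549 libraries, and was not tested within Panc1. PHLDA3, an inhibitor of AKT, averaged 7.20 ± 2.22 CPM in Panc1 siCont and 58.4 ± 1.26 CPM in A549 siCont (−3.00 ± 0.154, adjusted p = 3.42e-15). AEN, a p53-induced nuclease, and TRIAP1, a small p53-regulated inhibitor of apoptosis, were also lower in Panc1 siCont, with log2 differences of −1.87 and −1.74. TP53I3, a quinone oxidoreductase long known as PIG3, differed by only −0.37. TP53INP1 went the other way in siCont, where it was higher in Panc1 (0.33, adjusted p = 0.00563), although it was lower over the 4 conditions (−0.25). Over the 4 conditions all 9 death signalling members were called lower in Panc1, in a comparison where 90.2% of all genes tested were called, 6510 higher and 7071 lower. FAS, a death receptor (−0.17), lost its call without A549 siCont A (adjusted p = 0.0559) or A549 TGFβ A (0.0503). RRM2B (−0.11 over the conditions) lost its call without A549 siCont B (0.0528) or A549 siKLF10+TGFβ B (0.087).

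Among the cell cycle genes, CDKN1A, the cyclin-dependent kinase inhibitor p21, stood at 31.5, 28.0 and 30 CPM in Panc1 siCont and at 84.1 and 80.6 CPM in A549 siCont. Its lowest A549 library lay above every Panc1 library of all conditions, the highest of which was 44.2 CPM. The difference was −1.46 ± 0.0832 in siCont (adjusted p = 3.23e-17) and −2.60 ± 0.0408 over the 4 conditions. BTG2, an antiproliferative cofactor of mRNA deadenylation, differed by −2.02. The cyclins G1 and G2 went the other way, with CCNG1 at 251 ± 14.9 CPM in Panc1 siCont and 148 ± 1.03 CPM in A549 siCont (0.77 ± 0.0826, adjusted p = 3.41e-10). CCNG2 differed by 0.73 and GADD45A, a growth arrest and DNA repair protein, by 0.50 in siCont, although GADD45A was lower in Panc1 over the 4 conditions (−0.25).

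The feedback genes divided. MDM2 stood at 178, 156 and 166 CPM in Panc1 siCont and at 81.4 and 84.8 CPM in A549 siCont, without overlap. It was thus higher in the line with mutant p53 (1.01 ± 0.104, adjusted p = 5.46e-10). ZMAT3, an RNA-binding zinc-finger protein, was higher in Panc1 siCont too (1.11 ± 0.0978), while RPS27L, a ribosomal protein homologue that binds MDM2, was lower (−2.45 ± 0.0825, adjusted p = 1.51e-23). PPM1D, the phosphatase WIP1 that dephosphorylates p53, differed by −0.06 (adjusted p = 0.64).

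Of the DNA repair genes, DDB2, the damage sensor of nucleotide excision repair, averaged 28.1 ± 0.307 CPM in Panc1 siCont and 77.9 ± 3.62 CPM in A549 siCont (−1.47 ± 0.077). POLH, the translesion polymerase eta, was higher in Panc1 siCont (70.8 ± 4.10 against 27.9 ± 1.12 CPM in A549 siCont, 1.34 ± 0.0886). XPC, the other sensor of the excision pathway, differed by 0.02 and the ribonucleotide reductase subunit RRM2B by 0.11, and neither was called. FDXR, the ferredoxin reductase of the mitochondrial electron chain that serves iron-sulfur cluster and steroid synthesis, differed by −2.83 ± 0.13. The phospholipase C-like protein PLCL2 differed by −2.58. GDF15, a secreted stress cytokine of the TGFβ superfamily, stood at 31.3, 22.9 and 24.5 CPM in Panc1 siCont and at 49.0 and 41.0 CPM in A549 siCont, again without overlap (−0.78 ± 0.144, adjusted p = 2.67e-05). ZNF365, a zinc-finger protein tied to genome stability, was the member highest in Panc1 relative to A549. It had 704, 729 and 914 counts in Panc1 siCont and 4 and 9 counts in A549 siCont. Its log2 difference of 6.72 became 6.12 without A549 siCont A and 7.53 without A549 siCont B. Of the 25 calls in siCont, FBXW7, a ubiquitin ligase subunit that marks cyclin E for destruction, lost its call without Panc1 siCont C (adjusted p = 0.094) or A549 siCont A (0.239). SESN1, a stress-induced inhibitor of mTORC1, lost its call without Panc1 siCont C (0.0645) or A549 siCont B (0.324).

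**Figure D1:**
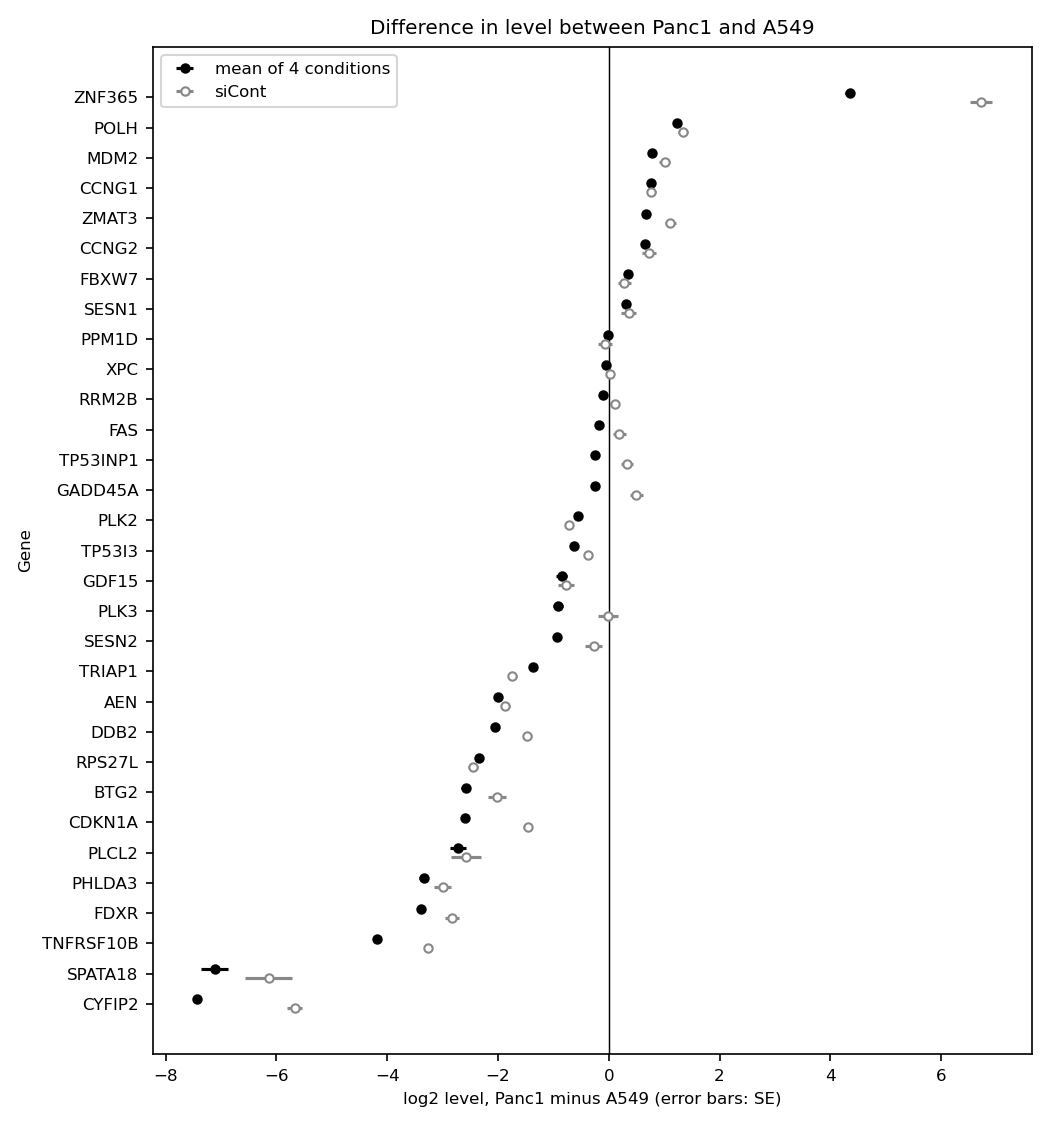
Log2 difference in level between Panc1 and A549 (x axis, Panc1 minus A549, error bars SE) for the 31 p53 target genes, ordered down the page; filled points are the mean over 4 conditions and open points siCont. ZNF365 (6.72 in siCont), POLH (1.34) and MDM2 (1.01) lie to the right, and TNFRSF10B (−3.26), FDXR (−2.83) and PHLDA3 (−3.00) to the left; the fitted values of SPATA18, with 0 to 2 counts per Panc1 library, depend on the fit and give no fold.

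TGFβ without siKLF10 moved p53 targets of Panc1 in both directions. Relative to siCont, 5 members rose and 7 fell of the 30 tested, that is 40% of them with a median log2 fold change of 0, against 29.0% of all genes tested (median 0). TP53I3, CDKN1A, PHLDA3, ZNF365 and DDB2 rose, and GDF15, PLK2, CYFIP2, CCNG1, GADD45A, MDM2 and XPC fell.

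In the cell cycle group of Panc1, CDKN1A stood at 39.2, 44.1 and 39.2 CPM in the TGFβ libraries and at 31.6, 28.0 and 29.9 CPM in siCont. Its rise was 1.36-fold (0.45 ± 0.0824, adjusted p = 0.000185). PLK2, a polo-like kinase of the stress and S-phase checkpoint, stood at 62.3, 63.3 and 57.0 CPM in TGFβ, all below the 97.1, 91.9 and 92.2 CPM of siCont. It fell by 0.62 ± 0.0719 on the log2 scale (adjusted p = 3.76e-07). CCNG1 averaged 196 ± 7.89 CPM in TGFβ and 252 ± 15.5 CPM in siCont (−0.36 ± 0.0742, adjusted p = 0.000657). GADD45A fell by 0.35 (adjusted p = 0.0044). The other 4 cell cycle members of Panc1 were not called.

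TP53I3 stood at 61.5, 61.1 and 59.8 CPM in TGFβ and at 39.9, 40.3 and 38.0 CPM in siCont Panc1 libraries, a rise of 1.54-fold (0.63 ± 0.0645, adjusted p = 7.05e-08). PHLDA3 stood at 11.7, 13.9 and 10.8 CPM in TGFβ, above the 5.59, 6.30 and 9.71 CPM of siCont (0.73 ± 0.177, adjusted p = 0.00319). CYFIP2, already low, fell to 3, 3 and 4 counts in TGFβ against 28, 16 and 18 counts in siCont (−2.58 ± 0.428, adjusted p = 5.73e-05). Its TGFβ libraries lie at the limit of 3 counts. MDM2 stood at 142, 132 and 140 CPM in TGFβ and at 179, 156 and 166 CPM in siCont (−0.27 ± 0.0873, adjusted p = 0.0227). That call was lost without siCont A or C or without TGFβ B or C, with adjusted p values of 0.0528 to 0.107; the other 11 were kept whichever library was left out.

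DDB2 averaged 34.4 ± 0.828 CPM in TGFβ and 28.1 ± 0.380 CPM in siCont Panc1 libraries (0.29 ± 0.0725, adjusted p = 0.00362). XPC went the other way (−0.23, adjusted p = 0.00678). GDF15 stood at 7.70, 9.91 and 10.5 CPM in TGFβ and at 31.4, 23.0 and 24.5 CPM in siCont. It fell 2.80-fold, with the highest TGFβ library less than the lowest of siCont (−1.48 ± 0.16, adjusted p = 5.95e-07). ZNF365 rose to 78.7 ± 2.70 CPM in TGFβ, against 56.7 ± 4.53 CPM in siCont (0.47 ± 0.0744, adjusted p = 2.98e-05). The 18 members of Panc1 that were not called had log2 fold changes of −0.48 to 0.17.

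In A549 TGFβ raised a large part of the list. Relative to siCont, 15 members rose and 3 fell of 31, or 58.1%, with a median log2 fold change of 0.32. Of all genes tested 47.7% were called (median −0.01), 3416 of them higher and 3317 lower. ZNF365, TP53I3, DDB2, CDKN1A, PLK3, TNFRSF10B and SESN2 at least doubled, with log2 fold changes from 1.01 to 3.97, while GDF15 fell more than any other member.

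CDKN1A stood at 208 and 201 CPM in TGFβ and at 82.1 and 78.6 CPM in siCont A549 libraries. It rose 2.54-fold (1.35 ± 0.0829, adjusted p = 7.91e-12). PLK3, another polo-like kinase of the stress response, had 15.5 and 13.1 CPM in TGFβ, both above the 7.11 and 5.07 CPM of siCont (1.23 ± 0.206, adjusted p = 6.54e-05). GADD45A averaged 49.9 ± 6.09 CPM in TGFβ and 31.0 ± 1.74 CPM in siCont (0.68 ± 0.135, adjusted p = 0.000564). CCNG1 again fell, to 101 and 99.1 CPM in TGFβ against 145 and 143 CPM in siCont (−0.52 ± 0.0775, adjusted p = 7.91e-06). BTG2 rose by 0.35 (adjusted p = 0.0365). PLK2, CCNG2 and FBXW7 were not called in A549. MDM2 stood at 93.9 and 87.3 CPM in TGFβ and at 79.5 and 82.7 CPM in siCont; the libraries did not overlap, but the difference missed the threshold (0.16 ± 0.0929, adjusted p = 0.158). ZMAT3 rose (0.53 ± 0.111, adjusted p = 0.000416), and neither PPM1D nor RPS27L was called.

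Among death signalling genes of A549, TNFRSF10B doubled to 537 and 503 CPM in TGFβ, against 261 and 255 CPM in siCont (1.01 ± 0.0811, adjusted p = 7e-10). TP53I3 rose 3.28-fold, with 157 and 168 CPM in TGFβ and 46.9 and 52.3 CPM in siCont (1.71 ± 0.0862, adjusted p = 2.54e-13). CYFIP2 averaged 124 ± 3.51 CPM in TGFβ and 75.2 ± 1.28 CPM in siCont (0.73 ± 0.0848). These genes had clear gaps between the groups, with no TGFβ library near siCont. TP53INP1, a stress protein that acts in autophagy and promotes p53 activity, rose by 0.71 ± 0.127 (adjusted p = 8.89e-05). PHLDA3 rose by 0.64 (adjusted p = 1.73e-05) and TRIAP1 fell by 0.28 (adjusted p = 0.0111).

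DDB2 tripled in A549, standing at 238 and 226 CPM in TGFβ and at 78.5 and 73.5 CPM in siCont (1.61 ± 0.0868, adjusted p = 8.43e-13). RRM2B (0.32) and POLH (0.30) rose by less, and XPC (0.01, adjusted p = 0.907) was not called. SESN2, the sestrin that senses leucine for mTORC1, had 14.2 and 15.6 CPM in TGFβ and 6.67 and 8.14 CPM in siCont (1.01 ± 0.16, adjusted p = 1.98e-05). GDF15 stood at 9.75 and 8.61 CPM in TGFβ and at 47.9 and 40 CPM in siCont. It fell 4.75-fold (−2.25 ± 0.143, adjusted p = 1.35e-11). ZNF365 rose to 78 and 59 counts in TGFβ, against 4 and 9 counts in siCont. Its log2 fold change of 3.97 (adjusted p = 1.27e-09) was 3.37 without siCont A and 4.78 without siCont B. Calls of 4 members depended on single libraries: POLH and TRIAP1 lost theirs without any 1 of the 4 libraries compared (adjusted p 0.063 to 0.16 and 0.0515 to 0.0805), RRM2B without siCont A (0.057), and BTG2 without siCont A, siCont B or TGFβ A (0.059 to 0.362, with a log2 fold change of 0.22 without TGFβ A). The 13 members not called had log2 fold changes of −0.12 to 0.36. Summed fibroblast markers moved with TGFβ in both lines, at 26.5 to 30 CPM in TGFβ and 11.2 to 13 CPM in siCont of Panc1, and 9.79 to 12 CPM in TGFβ and 0.962 to 1.60 CPM in siCont of A549; none of the 5 was at 0 in all libraries of these groups. In A549 other lists moved as well. The basal sum was 15.1 to 15.4 CPM in TGFβ and 4.28 to 5.69 CPM in siCont, the lung sum 2.01 to 2.52 CPM in TGFβ and 7.83 to 9.10 CPM in siCont, and the pancreatic sum 84.7 to 93.9 CPM in TGFβ and 38.0 to 38.5 CPM in siCont, with 4 of its 6 genes at 0 in both groups. The part of these markers in the results was not tested.

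**Figure D2:**
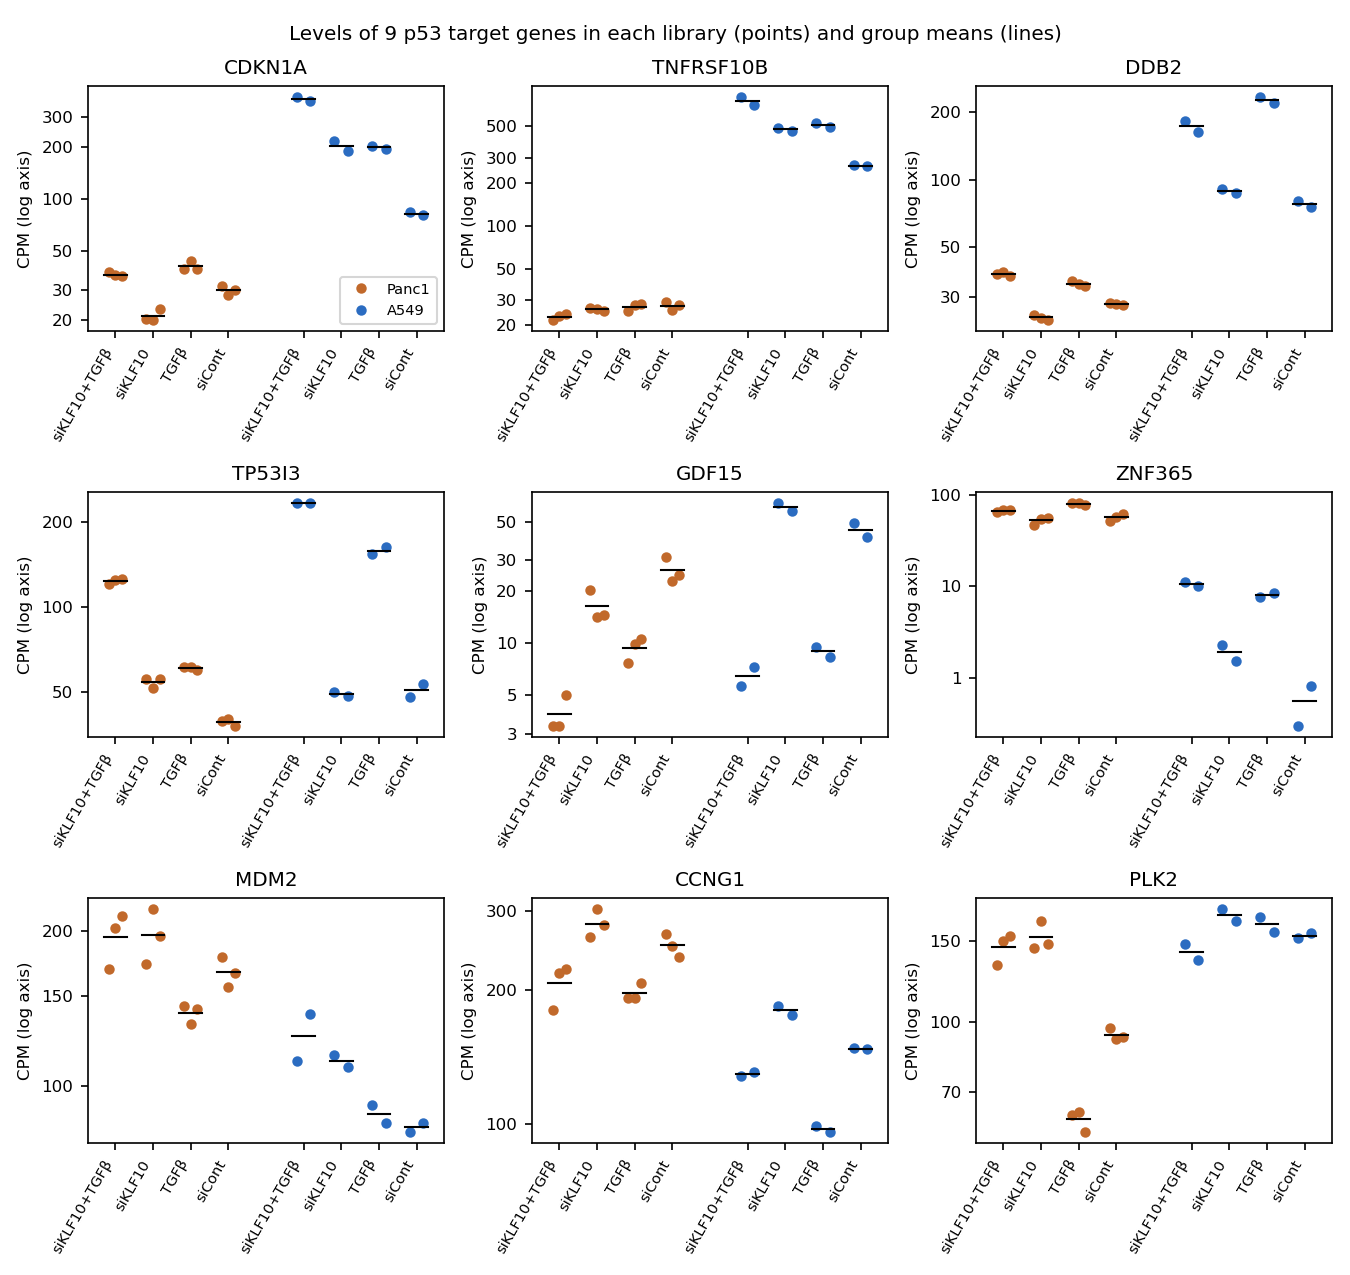
Levels of 9 p53 target genes in CPM on a log axis, scaled over all 20 libraries; each point is a library, each line a group mean, with Panc1 groups left of A549 groups. CDKN1A, TNFRSF10B and DDB2 lie higher in A549 (84.1 and 80.6 CPM of CDKN1A in siCont, against 28.0 to 31.5 in Panc1 siCont), ZNF365 and MDM2 lie lower there in siCont, and GDF15 is low in all TGFβ-treated libraries of both lines.

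The responses of the lines to TGFβ shared 7 members in the same direction and 2 in opposite directions. The 7 made up 58.3% of the members called in Panc1 and 38.9% of those called in A549, against 50.2% and 30.7% over all genes. CDKN1A, TP53I3, DDB2, PHLDA3 and ZNF365 rose in both lines, and GDF15 and CCNG1 fell in both. GADD45A and CYFIP2 rose in A549 and fell in Panc1. The difference itself was tested in 1 model over all libraries: the TGFβ log2 fold change in Panc1 minus that in A549 was called positive for 2 members and negative for 13 of 31 (median −0.34, against 0.07 over all genes), where 31.0% of all genes tested were called. ZNF365 (−3.42 ± 0.322), CYFIP2 (−3.22 ± 0.37), PLK3 (−1.43 ± 0.247), DDB2 (−1.24 ± 0.108) and TP53I3 (−1.01 ± 0.105) had the most negative differences, with adjusted p values of 2.44e-05 or less. CYFIP2 was low in Panc1, at 0.243 CPM in TGFβ, near the limit of 3 counts, and 1.51 CPM in siCont. Its fall there is against the siCont libraries that stood apart in KRT5, whose part was not tested. CDKN1A, although called in both lines, differed too (−0.82 ± 0.117, adjusted p = 1.08e-06), as did TNFRSF10B (−0.97 ± 0.111, adjusted p = 1.47e-08), GADD45A (−0.95) and SESN2 (−0.88). PLK2 (−0.70), TP53INP1 (−0.52), ZMAT3 (−0.39) and RRM2B (−0.34) were lower as well. The fall of GDF15 was smaller in Panc1 (0.84 ± 0.26, adjusted p = 0.015), and TRIAP1 was the other member with a positive difference (0.53). For MDM2 the difference was −0.36 ± 0.145 (adjusted p = 0.0636). The value of ZNF365 was −2.82 without A549 siCont A and −4.23 without A549 siCont B. Calls were lost for GDF15 without A549 siCont A (adjusted p = 0.0684) or TGFβ B (0.0776), for RRM2B without A549 siCont A, TGFβ A or TGFβ B (0.0543 to 0.0999), and for ZMAT3 without Panc1 siCont C or TGFβ B or A549 siCont B or TGFβ A (0.0543 to 0.233).

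After siKLF10, TGFβ moved Panc1 members in both directions, at a share near that of all genes. The libraries compared are not those compared for TGFβ alone, although both comparisons share the estimate of spread. Between siKLF10+TGFβ and siKLF10, 7 members rose and 6 fell of 30 tested (43.3%, median −0.05), against 45.0% of all genes tested (median −0.01). In Panc1, TP53I3 stood at 122, 125 and 126 CPM in siKLF10+TGFβ, against 55.6, 51.7 and 56.2 CPM in siKLF10, a 2.28-fold rise (1.19 ± 0.0619, adjusted p = 4.73e-13). CDKN1A stood at 38.1, 36.3 and 35.7 CPM in siKLF10+TGFβ, against 20.3, 20.1 and 23.4 CPM in siKLF10 (0.79 ± 0.0869, adjusted p = 1.32e-07). GDF15 fell 4.20-fold, to 3.36, 3.34 and 5.03 CPM in siKLF10+TGFβ, against 20.2, 14.2 and 14.5 CPM in siKLF10 (−2.07 ± 0.198, adjusted p = 7.56e-08). None of these groups overlapped. DDB2 rose by 0.64 ± 0.0738, PHLDA3 by 0.62, PPM1D by 0.38, ZNF365 by 0.35 and POLH by 0.33. FDXR fell by 0.97 ± 0.231, BTG2 by 0.83 ± 0.213, CCNG1 by 0.45, GADD45A by 0.38 and XPC by 0.27. MDM2 was at −0.01 ± 0.0864 (adjusted p = 0.936), and the 17 members not called ranged from −0.33 to 0.12. The call of PHLDA3 was lost without siKLF10 C or siKLF10+TGFβ A or B (0.0501 to 0.093) and that of PPM1D without siKLF10 C (0.105) or siKLF10+TGFβ B (0.0895). Called in the same direction with TGFβ alone were 9 members, 75% of those called there and 69.2% of those called after siKLF10; over all genes the shares were 78.5% and 50.7%.

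In A549, TGFβ raised 15 members and lowered 5 of 31 between the libraries labelled siKLF10+TGFβ and siKLF10 (64.5%, median 0.26), where 53.3% of all genes tested were called (median −0.01). The basal sum was 31.7 to 33.6 CPM in siKLF10+TGFβ and 7.03 to 7.39 CPM in siKLF10, and its part was not tested. TP53I3 stood at 238 and 231 CPM in siKLF10+TGFβ and at 49.2 and 48.7 CPM in siKLF10, a 4.78-fold rise (2.26 ± 0.0874, adjusted p = 2.41e-15). CDKN1A stood at 398 and 368 CPM in siKLF10+TGFβ and at 214 and 191 CPM in siKLF10 (0.91 ± 0.079, adjusted p = 2.21e-09). GDF15 fell 9.04-fold, to 5.77 and 7.25 CPM in siKLF10+TGFβ, against 62.8 and 57.6 CPM in siKLF10 (−3.18 ± 0.137, adjusted p = 1.51e-14). Here too no groups overlapped. ZNF365 had 112 and 184 counts in siKLF10+TGFβ and 26 and 11 counts in siKLF10 (2.41 ± 0.246). SESN2 rose by 1.19 ± 0.137, GADD45A by 1.03 ± 0.132, DDB2 by 0.97 ± 0.0865, TP53INP1 by 0.96 ± 0.113, PLK3 by 0.90 and TNFRSF10B by 0.68. FDXR fell by 0.70 ± 0.0996. MDM2 was not called (0.18 ± 0.0896, adjusted p = 0.105), and the 11 members not called ranged from −0.19 to 0.36. Shared in direction with TGFβ alone were 15 members, 83.3% of those called there and 75% of those called after siKLF10, against 78.9% and 70.7% over all genes. BTG2 was called in opposite directions, higher with TGFβ alone (0.35) and lower after siKLF10 (−0.36). Its call with TGFβ alone was lost without siCont A, siCont B or TGFβ A, and its call after siKLF10 was lost without siKLF10 B. Calls of XPC and PLK2 were lost without siKLF10 A (0.12 and 0.0975) or siKLF10+TGFβ B (0.127 and 0.084), and that of FBXW7 without siCont A, siCont B, siKLF10 A, siKLF10 B or siKLF10+TGFβ B (0.0552 to 0.313). The log2 fold changes without siKLF10+TGFβ B were 0.20 for FBXW7, 0.17 for XPC and −0.17 for PLK2, against 0.34, 0.26 and −0.26 with it.

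**Figure D3:**
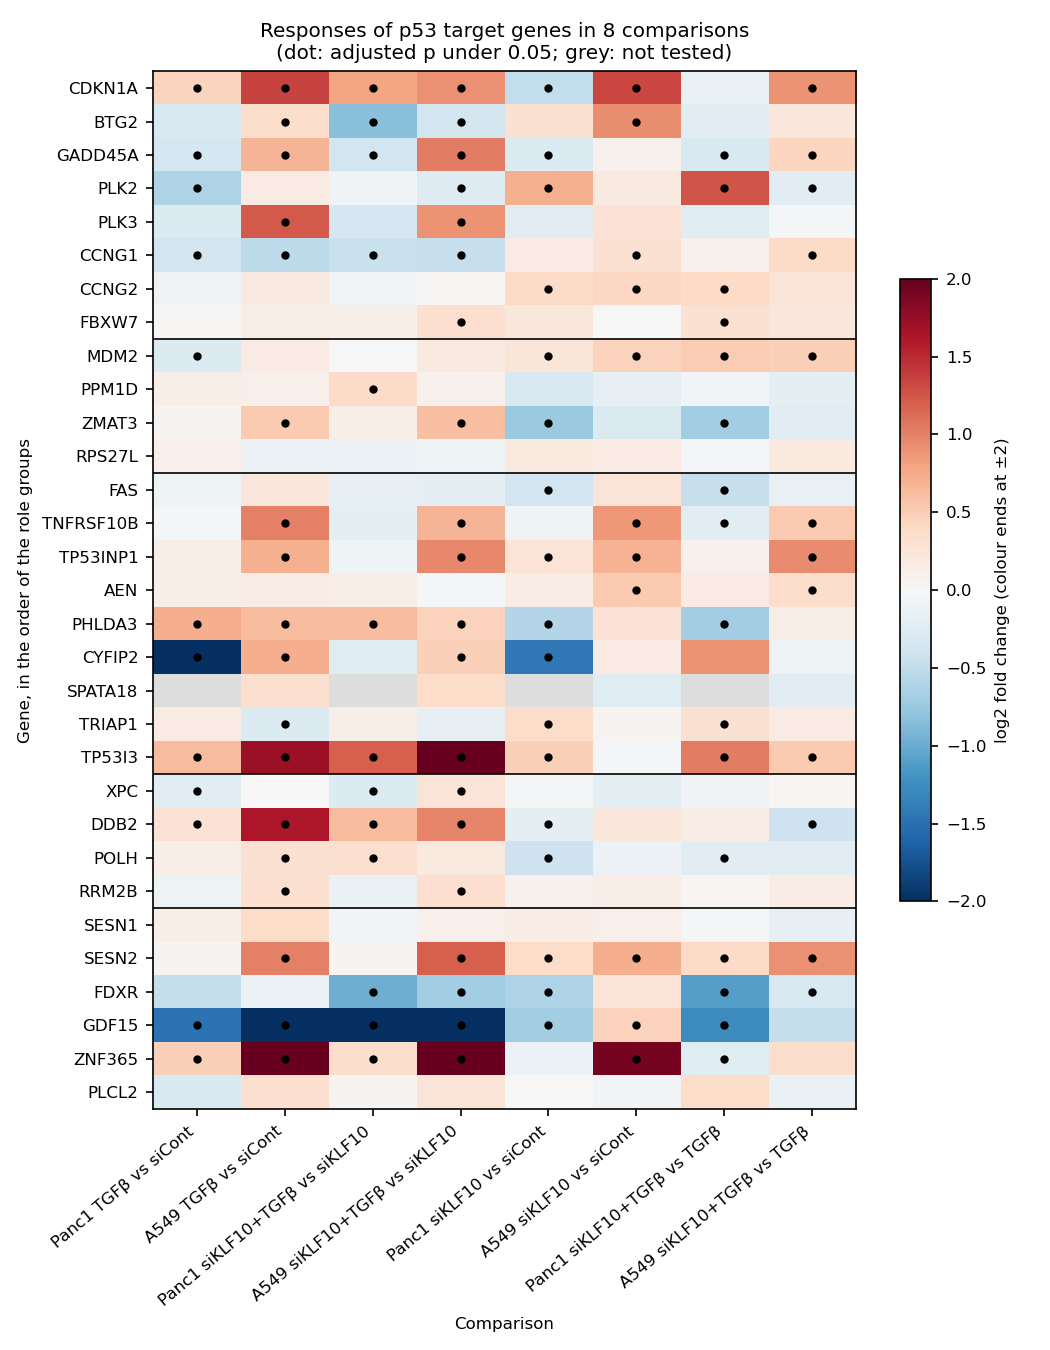
Log2 fold changes of the 31 p53 target genes (down the page, in 5 role groups separated by lines) in 8 comparisons (across), from blue for lower to red for higher, with colours ending at ±2; a dot marks an adjusted p under 0.05 and grey a gene not tested. GDF15 is blue and TP53I3 red in all 4 TGFβ columns (GDF15 −1.48, −2.25, −2.07 and −3.18), and CDKN1A is blue with siKLF10 in Panc1 (−0.49) and red in A549 (1.34).

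KLF10 knockdown without TGFβ moved the Panc1 list in both directions. Between siKLF10 and siCont, 7 members rose and 10 fell of 30 tested, or 56.7% (median −0.01), against 35.6% of all genes tested (median 0). PLK2, TP53I3, CCNG2, TRIAP1, SESN2, TP53INP1 and MDM2 rose. CYFIP2, ZMAT3, GDF15, FDXR, PHLDA3, CDKN1A, POLH, FAS, GADD45A and DDB2 fell. The Panc1 siCont libraries used here are those with the basal markers given above; 16, 12 and 13 members were called without siCont A, B and C in turn.

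CDKN1A fell 1.40-fold in Panc1, to 20.3, 20.1 and 23.4 CPM in siKLF10 against 31.6, 28.0 and 29.9 CPM in siCont (−0.49 ± 0.0879, adjusted p = 0.000164). PLK2 moved the other way, with 145, 167 and 149 CPM in siKLF10, against 97.1, 91.9 and 92.2 CPM in siCont (0.71 ± 0.0694, adjusted p = 5.73e-08). CCNG2 averaged 34.6 ± 3.98 CPM in siKLF10 and 26.6 ± 2.07 CPM in siCont (0.38 ± 0.103, adjusted p = 0.00635). GADD45A was lower by 0.27, and the other 4 cell cycle members were not called. Within the feedback group, ZMAT3 fell 1.67-fold, standing at 40.4, 49.5 and 39.5 CPM in siKLF10 and at 71.0, 71.3 and 74.3 CPM in siCont (−0.74 ± 0.0772, adjusted p = 1.45e-07). MDM2 stood at 173, 221 and 197 CPM in siKLF10 and at 179, 156 and 166 CPM in siCont, with 1 siKLF10 library inside the range of siCont (0.24 ± 0.0866, adjusted p = 0.0381). PPM1D was just outside the threshold (−0.30, adjusted p = 0.0503).

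FAS, the death receptor CD95, fell to 13.5, 13.8 and 15.8 CPM in siKLF10 against 19.4, 18.9 and 17.9 CPM in siCont of Panc1 (−0.38 ± 0.105, adjusted p = 0.00724). TP53I3 rose in contrast, to 55.6, 51.7 and 56.2 CPM in siKLF10 against 39.9, 40.3 and 38.0 CPM in siCont (0.47 ± 0.0652, adjusted p = 8.19e-06). TRIAP1 rose by 0.36 ± 0.0804. The other death receptor, TNFRSF10B, was not called (−0.09, adjusted p = 0.445). CYFIP2 had 10, 5 and 6 counts in siKLF10, against 28, 16 and 18 counts in siCont (−1.43 ± 0.366, adjusted p = 0.00408). PHLDA3 fell by 0.58 (adjusted p = 0.0322). POLH averaged 53.3 ± 2.46 CPM in siKLF10 and 70.9 ± 3.93 CPM in siCont (−0.41 ± 0.0692, adjusted p = 7.73e-05). GDF15 stood at 20.2, 14.2 and 14.5 CPM in siKLF10 and at 31.4, 23.0 and 24.5 CPM in siCont (−0.69 ± 0.15, adjusted p = 0.00144). Its groups did not overlap. FDXR fell by 0.62 ± 0.19 (adjusted p = 0.0149). The 13 members not called ranged from −0.30 to 0.30.

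Of these 17 calls in Panc1, 9 were kept whichever library was left out. PHLDA3 was lost without siCont C (−0.29, adjusted p = 0.287), siKLF10 B (0.0682) or siKLF10 C (0.105). FDXR was lost without siCont B (0.0979) or siKLF10 C (0.0579), and GADD45A without siCont A (0.0578), siCont B (0.115) or siKLF10 C (0.0725). CCNG2 and TP53INP1 were lost without siKLF10 B (0.0558 and 0.0517). MDM2 was lost without siCont B or C, TGFβ B or C, or siKLF10 B or C (0.0505 to 0.217, with a log2 fold change of 0.15 without siKLF10 B). DDB2 (adjusted p = 0.0407) was lost without any 1 of the siCont or siKLF10 libraries, TGFβ A or siKLF10+TGFβ B (0.0513 to 0.135), and SESN2 (adjusted p = 0.0488) without siCont B or C, any TGFβ library or any siKLF10 library (0.0543 to 0.21).

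In A549 all called members were higher in the libraries labelled siKLF10. Relative to siCont, 11 rose and 0 fell of 31 (35.5%, median 0.22), while 19.5% of all genes tested were called, 1351 higher and 1407 lower (median 0). The lung marker sum was 4.17 to 5.72 CPM in siKLF10 and 7.83 to 9.10 CPM in siCont, the basal sum 7.03 to 7.39 CPM in siKLF10 and 4.28 to 5.69 CPM in siCont, and their part was not tested. At an unadjusted p under 0.05 from the same test there were 18 members, counted without regard to direction, beside 4491 of the 14124 genes tested. DESeq2 called 10 members. KLF10 itself was not called between these groups, with 105 ± 4.90 CPM in siKLF10 and 108 ± 2.48 CPM in siCont. CDKN1A stood at 214 and 191 CPM in siKLF10 and at 82.1 and 78.6 CPM in siCont, a 2.53-fold rise (1.34 ± 0.0827, adjusted p = 5.19e-10). TNFRSF10B stood at 477 and 466 CPM in siKLF10 and at 261 and 255 CPM in siCont (0.87 ± 0.0809, adjusted p = 1.3e-07). BTG2 had 26.3 and 28.4 CPM in siKLF10, against 14.9 and 13.6 CPM in siCont (0.93 ± 0.126, adjusted p = 1.96e-05). In each of these 3 genes both siKLF10 libraries lay far above both siCont libraries.

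MDM2 stood at 113 and 110 CPM in the A549 libraries labelled siKLF10 and at 79.5 and 82.7 CPM in siCont, without overlap (0.46 ± 0.0915, adjusted p = 0.00117). AEN rose by 0.53 ± 0.0899 (adjusted p = 0.000245), TP53INP1 by 0.69 ± 0.126 (adjusted p = 0.000456) and SESN2 by 0.73 ± 0.162 (adjusted p = 0.00285). GDF15 stood at 62.8 and 57.6 CPM in siKLF10, above the 47.9 and 40 CPM of siCont (0.46 ± 0.111, adjusted p = 0.00578). It was the only comparison of the 8 within lines in which GDF15 was called higher. ZNF365 had 26 and 11 counts in siKLF10 against 4 and 9 counts in siCont (1.91 ± 0.442, adjusted p = 0.00395). CCNG2 and CCNG1 rose by 0.42 and 0.31. The 20 members not called ranged from −0.29 to 0.29, and PHLDA3 (0.29, adjusted p = 0.0502) lay just outside.

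The number called in this A549 comparison moved with the libraries used: it was 7 without siCont A or siKLF10 A and 18 without siKLF10+TGFβ A or B. Calls were lost for ZNF365 without siCont A (1.31, adjusted p = 0.0939) or siKLF10 A (1.54, adjusted p = 0.13), and its log2 fold change was 2.72 without siCont B. GDF15 lost its call without siCont B (0.144) or siKLF10 A (0.116), SESN2 without siCont A (0.0702), CCNG1 without siCont A, siCont B or siKLF10 A (0.0582 to 0.071) and CCNG2 without siCont A or B, TGFβ A or B, or siKLF10 A or B (0.0569 to 0.31). CDKN1A, BTG2, MDM2, TNFRSF10B, TP53INP1 and AEN kept theirs whichever library was left out.

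Panc1 and A549 were called in the same direction after siKLF10 for 4 members, 23.5% of those called in Panc1 and 36.4% of those in A549 (18.1% and 33.3% over all genes). These were MDM2, CCNG2, TP53INP1 and SESN2, all higher. Each of these 4 calls was lost in Panc1 without some library, and those of CCNG2 and SESN2 were lost in A549 too. CDKN1A and GDF15 were lower in Panc1 and higher in A549. The siKLF10 log2 fold change in Panc1 minus that in A549 was called positive for 3 members and negative for 11 of 31 (median −0.34, against 0.01 over all genes), where 17.2% of all genes tested were called. For CDKN1A the difference was −1.80 ± 0.121 (adjusted p = 3.09e-12). It was −1.56 ± 0.323 for CYFIP2 (adjusted p = 0.000799), −1.13 ± 0.211 for GDF15 (adjusted p = 0.000563), −0.93 ± 0.112 for TNFRSF10B (adjusted p = 3.76e-07) and −0.85 ± 0.207 for FDXR. CYFIP2 rests on few counts in Panc1, at 0.562 CPM in siKLF10 and 1.51 CPM in siCont. PLK2 (0.55 ± 0.11) and TP53I3 (0.51 ± 0.11) had positive differences, and for MDM2 the difference was −0.19 ± 0.143 (adjusted p = 0.397). These lines also differ in KLF10 itself, which fell more with siKLF10 in Panc1 (−0.76) than in A549 (−0.05). In the joint model this difference was −0.68 ± 0.0996 (adjusted p = 8.08e-06). ZNF365 (−2.01) was −1.40 without A549 siCont A, −2.81 without A549 siCont B and lost its call without A549 siKLF10 A (−1.62, adjusted p = 0.0699). PHLDA3 (−0.85) lost its call without Panc1 siCont C (−0.55, adjusted p = 0.089), Panc1 siKLF10 C (0.0569), A549 siCont A (0.0533) or A549 siKLF10 A (0.0811), and FAS (−0.61) without A549 siCont B (0.0833) or A549 siKLF10 B (0.078). DDB2 (−0.39), ZMAT3 (−0.43), AEN (−0.35) and TRIAP1 (0.33) were called as well and were lost without 2, 6, 8 and 15 of the libraries left out in turn. The 14 calls became 9 without A549 siCont B and 8 without A549 siKLF10 A.

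**Figure D4:**
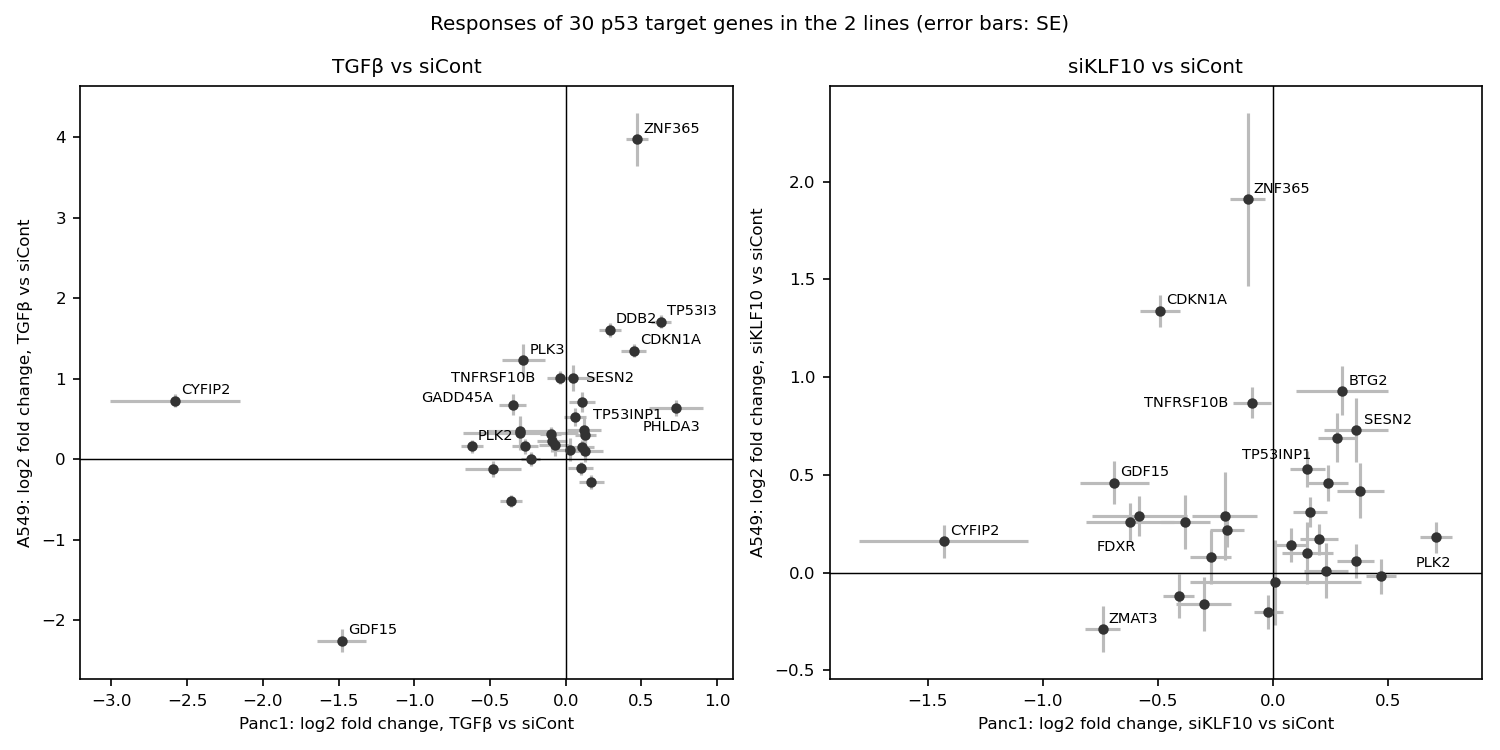
Log2 fold changes of 30 p53 target genes in Panc1 (x axis) and A549 (y axis) for TGFβ against siCont (left) and siKLF10 against siCont (right), with SE as error bars; genes past 0.6 in either line are named. On the left GDF15 is low in both lines (−1.48 in Panc1 and −2.25 in A549) while PLK3 and GADD45A lie left of 0 and high in A549; on the right CDKN1A lies at −0.49 in Panc1 and 1.34 in A549.

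Under TGFβ, siKLF10 again moved the Panc1 list in both directions. The libraries compared are not those compared without TGFβ, although both comparisons share the estimate of spread. Between siKLF10+TGFβ and TGFβ, 7 members rose and 9 fell of 30 tested (53.3%, median −0.02), against 41.7% of all genes tested (median 0). PLK2 stood at 134, 150 and 154 CPM in siKLF10+TGFβ and at 62.3, 63.3 and 57.0 CPM in TGFβ Panc1 libraries, a 2.40-fold rise (1.26 ± 0.0714, adjusted p = 1.38e-11). TP53I3 rose 2.04-fold, to 122, 125 and 126 CPM in siKLF10+TGFβ against 61.5, 61.1 and 59.8 CPM in TGFβ (1.03 ± 0.0611, adjusted p = 2.39e-11). MDM2 stood at 170, 203 and 214 CPM in siKLF10+TGFβ, all above the 142, 132 and 140 CPM of TGFβ (0.50 ± 0.0872, adjusted p = 0.000127). These rises were the clearest of the 7, and CCNG2 (0.40), SESN2 (0.38), FBXW7 (0.31) and TRIAP1 (0.30) were the others. GDF15 had 3.36, 3.34 and 5.03 CPM in siKLF10+TGFβ and 7.70, 9.91 and 10.5 CPM in TGFβ (−1.28 ± 0.211, adjusted p = 9.12e-05). FDXR fell 2.14-fold, with 2.90, 1.63 and 1.82 CPM in siKLF10+TGFβ and 4.21, 5.67 and 4.15 CPM in TGFβ (−1.10 ± 0.225, adjusted p = 0.000485). ZMAT3 averaged 46.6 ± 0.840 CPM in siKLF10+TGFβ and 75.5 ± 2.79 CPM in TGFβ (−0.70 ± 0.0765, adjusted p = 2.58e-07). In these 3 the libraries of both groups lay apart. The other calls that fell were PHLDA3 (−0.69), FAS (−0.46), GADD45A (−0.30), ZNF365 (−0.24), TNFRSF10B (−0.22) and POLH (−0.21).

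CDKN1A, lower after siKLF10 without TGFβ, missed the threshold under TGFβ in Panc1, with 38.1, 36.3 and 35.7 CPM in siKLF10+TGFβ and 39.2, 44.1 and 39.2 CPM in TGFβ (−0.15 ± 0.0814, adjusted p = 0.142). The 14 members not called ranged from −0.25 to 0.90, the upper end being CYFIP2 with 7, 6 and 5 counts in siKLF10+TGFβ and 3, 3 and 4 counts in TGFβ. Calls were lost for FBXW7 without TGFβ C (adjusted p = 0.0834), for GADD45A without TGFβ C (0.0929) or siKLF10+TGFβ C (0.0588), for POLH without TGFβ B or C or siKLF10+TGFβ A (0.0501 to 0.0651), for SESN2 without TGFβ A or C or siKLF10+TGFβ A or C (0.0761 to 0.133), and for TNFRSF10B without TGFβ B or C or siKLF10+TGFβ A or B (0.0806 to 0.123). Of the members called here, 13 were called in the same direction without TGFβ, 81.2% of this set and 76.5% of the other, against 56.3% and 66% over all genes.

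In A549, 9 members were higher and 3 lower of 31 in the libraries labelled siKLF10+TGFβ than in TGFβ (38.7%, median 0.15), where 28.3% of all genes tested were called (median 0.01). The basal marker sum moved with them, at 31.7 to 33.6 CPM in siKLF10+TGFβ and 15.1 to 15.4 CPM in TGFβ, with KRT6A at 1.26 ± 0.146 and TP63 at 0.80 ± 0.203. So did the pancreatic sum, at 115 to 132 CPM in siKLF10+TGFβ and 84.7 to 93.9 CPM in TGFβ, with SOX9 at 0.48 ± 0.0915. Their part in the result was not tested. CDKN1A stood at 398 and 368 CPM in siKLF10+TGFβ and at 208 and 201 CPM in TGFβ, a 1.87-fold rise (0.90 ± 0.0793, adjusted p = 3.27e-08). TP53INP1 had 43.3 and 50.3 CPM in siKLF10+TGFβ and 24.3 and 24.3 CPM in TGFβ (0.95 ± 0.114, adjusted p = 2.11e-06). SESN2 had 30.3 and 26.1 CPM in siKLF10+TGFβ and 14.2 and 15.6 CPM in TGFβ (0.92 ± 0.136, adjusted p = 2.91e-05). These 3 genes stood highest of the 4 A549 groups in siKLF10+TGFβ, as did TNFRSF10B, TP53I3, MDM2 and GADD45A among the others called here. TNFRSF10B rose by 0.53 ± 0.0797, TP53I3 by 0.53 ± 0.0801, MDM2 by 0.47 ± 0.0912 (adjusted p = 0.000512), GADD45A by 0.43, CCNG1 by 0.38 and AEN by 0.35. DDB2 fell, with 187 and 161 CPM in siKLF10+TGFβ and 238 and 226 CPM in TGFβ (−0.42 ± 0.0831, adjusted p = 0.000664). FDXR (−0.31) and PLK2 (−0.23) fell as well. GDF15 lay just outside the threshold, with 5.77 and 7.25 CPM in siKLF10+TGFβ and 9.75 and 8.61 CPM in TGFβ (−0.47 ± 0.177, adjusted p = 0.0503). The 19 members not called ranged from −0.47 to 0.35. AEN lost its call without TGFβ B (adjusted p = 0.0793), FDXR without TGFβ B (0.245) or siKLF10+TGFβ A (0.0607), GADD45A without TGFβ A (0.241) or siKLF10+TGFβ B (0.22, adjusted p = 0.152), and PLK2 without siCont A or B, TGFβ A or B, or siKLF10+TGFβ B (0.0593 to 0.248, with −0.15 without siKLF10+TGFβ B). Without TGFβ, 7 members were called in the same direction, 58.3% of those called under TGFβ and 63.6% of those called without it, against 35.2% and 50.9% over all genes.

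Between lines, the siKLF10 log2 fold change under TGFβ in Panc1 minus that in A549 was called positive for 3 members and negative for 10 of 31 (median −0.25, against −0.05 over all genes), where 19.8% of all genes tested were called. PLK2 was higher in Panc1 by 1.46 ± 0.112 (adjusted p = 1.63e-11), DDB2 by 0.53 ± 0.105 and TP53I3 by 0.46 ± 0.0989. CDKN1A was lower by 1.09 on the log2 scale (−1.09 ± 0.114, adjusted p = 1.18e-08), TP53INP1 by −0.91 ± 0.141, TNFRSF10B by −0.79 ± 0.112 and GADD45A by −0.77 ± 0.166. These 7 kept their calls whichever library was left out. For MDM2 the difference was −0.01 ± 0.143 (adjusted p = 1) and for GDF15 −0.85 ± 0.324 (adjusted p = 0.068). PHLDA3 (−0.83) and ZNF365 (−0.63) lost their calls without A549 TGFβ A (0.0522 and 0.129). FDXR (−0.82) lost its call without Panc1 TGFβ B, Panc1 siKLF10+TGFβ B, A549 TGFβ A or A549 siKLF10+TGFβ B (0.0518 to 0.0714), and ZMAT3 (−0.51) without A549 TGFβ B (0.0644) or A549 siKLF10+TGFβ B (0.071). SESN2 (−0.58) and CCNG1 (−0.34) had adjusted p values of 0.0335 and 0.0382, and were lost without 5 and 6 of the libraries left out in turn. The 13 calls became 8 without A549 TGFβ A. MDM2, SESN2 and TP53I3 rose with siKLF10 under TGFβ in both lines, and FDXR fell in both. TNFRSF10B and GADD45A fell in Panc1 and rose in A549, and PLK2 rose in Panc1 and fell in A549. The 4 that shared a direction were 25% of those called in Panc1 and 33.3% of those in A549, against 28.6% and 42% over all genes.

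The interaction compares the TGFβ response after siKLF10 with the response in its absence. It was called for 3 of 30 members in Panc1, all higher, against 4.42% of all genes tested. TP53I3 (0.56 ± 0.0892, adjusted p = 0.000585) responded more to TGFβ after siKLF10. PLK2 (0.55 ± 0.0991, adjusted p = 0.00182) fell with TGFβ without siKLF10 (−0.62) and was at −0.07 after it. CYFIP2 (2.32 ± 0.669, adjusted p = 0.0496) rests on 3 to 28 counts per library and lost its call without any of 10 libraries, with adjusted p values of 0.0601 to 0.118. CDKN1A (0.34, adjusted p = 0.119), MDM2 (0.26, adjusted p = 0.253) and GDF15 (−0.58, adjusted p = 0.235) were not called, and the 27 members not called ranged from −0.58 to 0.35.

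In A549 the interaction was called for 7 of 31 members, 1 higher and 6 lower, against 6.49% of all genes tested. DDB2 rose less with TGFβ after siKLF10 (−0.64 ± 0.122, adjusted p = 0.00246), with log2 responses of 0.97 after it and 1.61 without it. This call alone was kept whichever library was left out, and the count of 7 became 1 without siKLF10 A, 2 without siCont B or TGFβ A, 4 without siCont A, TGFβ B or siKLF10 B, and 12 without siKLF10+TGFβ A. GDF15 fell further (−0.93 ± 0.209, adjusted p = 0.00899), TP53I3 rose further (0.55 ± 0.121, adjusted p = 0.00817), and CDKN1A rose less (−0.43 ± 0.114, adjusted p = 0.0234). BTG2 (−0.71), FDXR (−0.57) and PLK2 (−0.41) were also called. GDF15 lost its call without siCont B (0.0534), TGFβ A (0.13) or siKLF10 A (0.0557), and TP53I3 without siCont B (0.107), TGFβ A (0.0724) or siKLF10 A (0.0511). BTG2 lost its call without siCont B, TGFβ A, siKLF10 A or siKLF10 B (0.0538 to 0.183). CDKN1A lost it without siCont A or B, TGFβ A or B, or siKLF10 A (0.0831 to 0.183), FDXR without siCont A or B, TGFβ B, or siKLF10 A or B (0.0514 to 0.124), and PLK2 without any siCont, TGFβ or siKLF10 library (0.0606 to 0.177). MDM2 was at 0.01 ± 0.129 (adjusted p = 0.975), and ZNF365 had the most negative value among the 24 not called (−1.55, adjusted p = 0.0612).

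The 8 comparisons within lines share libraries. Among them TP53I3 was called in 7, each time higher. CDKN1A was called in 7, higher in 6 and lower in 1, and GDF15 in 7, lower in 6 and higher in 1. GADD45A was called higher in 3 and lower in 4, the A549 calls being the higher ones. SESN2 was called higher in 6 and FDXR lower in 5. RPS27L, SESN1, PLCL2 and SPATA18 were called in none.

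Genes that regulate p53 were examined as a list of 20. Over the 4 conditions 17 were higher and 2 lower in Panc1 than in A549 (95%, median 0.94), against 90.2% of all genes tested (median −0.07). TP73, a paralogue of p53, differed by 3.10 ± 0.149. ATM, the kinase that signals double-strand breaks, differed by 1.90 ± 0.082 and MDM4, the partner of MDM2 in restraining p53, by 1.89 ± 0.0517. The differences took in relatives, kinases and inhibitors of p53. With TGFβ 3 rose and 4 fell of 20 in Panc1 (35% against 29.0% of all genes, median 0.04), and 9 rose and 4 fell of 19 in A549 (68.4% against 47.7%, median 0.17). PPP1R13L, the p53-binding inhibitor iASPP, rose in both lines, to 89.1 CPM in TGFβ against 40.6 CPM in siCont of Panc1 (1.13 ± 0.0865) and to 47.2 CPM in TGFβ against 15.6 CPM in siCont of A549 (1.59 ± 0.111). TP73 rose in A549 (2.72 ± 0.484) and fell in Panc1 (−0.44 ± 0.153). With siKLF10, 1 rose and 7 fell in Panc1 (40% against 35.6% of all genes, median −0.10), and 1 rose and 5 fell in A549 (31.6% against 19.5%, median −0.11). HIPK2, a kinase that phosphorylates p53 to favour cell death, fell in both lines, to 61.7 CPM in siKLF10 against 172 CPM in siCont of Panc1 (−1.48 ± 0.0815, adjusted p = 7.93e-12) and to 63.9 CPM in siKLF10 against 133 CPM in siCont of A549 (−1.05 ± 0.0927, adjusted p = 5.46e-08). TP63, the basal epithelial relative of p53, fell in Panc1 (−1.62 ± 0.399) and rose in A549 (1.23 ± 0.276), and it is also 1 of the 5 basal markers. The falls counted in Panc1 with TGFβ and with siKLF10 take in CDKN2A (−4.68 and −6.26) and TP63 (−0.98 and −1.62). Both comparisons are against the siCont libraries that stood apart in CDKN2A and basal markers, whose part was not tested. Under TGFβ, siKLF10 raised 4 and lowered 4 of 20 in Panc1 (40% against 41.7% of all genes, HIPK2 −1.44 ± 0.081) and raised 3 and lowered 3 of 19 in A549 (31.6% against 28.3%, TP73 −1.02 ± 0.372). HIPK2 was not called with siKLF10 under TGFβ in A549 (−0.14, adjusted p = 0.322). In that line it fell with TGFβ alone (−1.19 ± 0.0943), and its interaction was called (0.92 ± 0.134). After siKLF10, TGFβ raised 4 and lowered 3 in Panc1 (35% against 45.0%), and raised 7 and lowered 4 in A549 (57.9% against 53.3%). The medians over all genes in these 8 comparisons lay between −0.01 and 0.01.

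A further list held 46 p53 targets that are not members. Over the 4 conditions 11 of 43 tested were higher and 30 lower in Panc1 than in A549 (95.3%, median −0.69), against 90.2% of all genes tested (median −0.07). EDA2R, a TNF receptor family member, averaged 0.0467 CPM in Panc1 siCont and 29.7 CPM in A549 siCont. BBC3, the BH3-only protein PUMA, averaged 1.21 CPM in Panc1 siCont and 18.7 CPM in A549 siCont (−4.49 ± 0.0887 over the conditions), and the decoy receptor TNFRSF10D 10.8 CPM in Panc1 siCont and 99.5 CPM in A549 siCont (−4.21 ± 0.0499). These are levels within their own line. With TGFβ, 6 rose and 13 fell of 40 tested in Panc1 (47.5% against 29.0% of all genes, median −0.12), and 20 rose and 7 fell of 43 in A549 (62.8% against 47.7%, median 0.28). In Panc1 the atypical E2F repressor E2F7 rose (1.19 ± 0.0695) and the glutaminase GLS2 fell (−1.38 ± 0.354). In A549 the nectin PVRL4 rose to 9.01 CPM in TGFβ against 0.530 CPM in siCont (3.96 ± 0.36). The ligand KITLG fell there (−2.29 ± 0.113), and STEAP3, a ferrireductase, rose (1.57 ± 0.0821). With siKLF10, 3 rose and 14 fell in Panc1 (42.5% against 35.6% of all genes, median −0.11) and 7 rose and 2 fell in A549 (20.9% against 19.5%, median 0.17). STEAP3 fell in Panc1 (−0.77 ± 0.0653), and BBC3 (0.75 ± 0.117) and the pore-forming death effector BAX (0.57 ± 0.0828) rose in A549. Under TGFβ, siKLF10 raised 4 and lowered 12 in Panc1 (40% against 41.7% of all genes, median −0.18), with STEAP3 at −1.50 ± 0.066, and raised 9 and lowered 3 in A549 (27.9% against 28.3%, median 0.05). After siKLF10, TGFβ raised 8 and lowered 16 in Panc1 (60% against 45.0%, median −0.10), and raised 16 and lowered 9 in A549 (58.1% against 53.3%, median 0.13).

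Targets of the stress factors ATF4 and CHOP, 10 genes, were read because they share GDF15 and SESN2 with p53 as genes under their control. With siKLF10, 4 rose and 0 fell in Panc1 (40% against 35.6% of all genes, median 0.28), namely DDIT3, which encodes CHOP (0.72 ± 0.0959), the asparagine synthetase ASNS (0.53 ± 0.0697), the mTORC1 inhibitor DDIT4 (0.51 ± 0.108) and ATF4 (0.26 ± 0.0685). In A549, 5 rose and 0 fell (50% against 19.5% of all genes, median 0.43), led by the cystine transporter SLC7A11 (0.90 ± 0.0745), ASNS (0.77 ± 0.0913), the pseudokinase TRIB3 (0.56 ± 0.0944) and DDIT4 (0.55 ± 0.0712). At an unadjusted p under 0.05 from the same test, without regard to direction, there were 5 of the 10 in Panc1 and 6 in A549. Over all genes tested there were 5869 of 13218 in Panc1 and 4491 of 14124 in A549. Under TGFβ, siKLF10 raised 6 and lowered 0 in Panc1 (60% against 41.7%, median 0.36) and raised 4 and lowered 1 in A549 (50% against 28.3%, median 0.15). SESN2 was higher with siKLF10 in all 4 of these comparisons, while GDF15 was higher with it only in A549 without TGFβ. With TGFβ alone 1 rose and 4 fell in Panc1 (50% against 29.0%, median −0.04) and 3 rose and 4 fell in A549 (70% against 47.7%, median −0.15), among them DDIT4 in Panc1 (−0.81 ± 0.118) and ATF3, a stress-induced repressor, in A549 (1.29 ± 0.178). After siKLF10, TGFβ raised 3 and lowered 4 in each line (70%, against 45.0% of all genes in Panc1 and 53.3% in A549).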

How the data were processed

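For every one of the 20 libraries the authors deposited the raw read count of each gene. The submitters' processing notes name TopHat, Bowtie2, HTSeq 0.6.0, DESeq2 and the build hg19 without saying which did what. The sources used here give neither the counting options nor the strand setting; the kit was directional per the labels, and overlapping genes are uncertain. Library sizes and tests exclude the 5 summary lines of each table; the no-feature share is in the report.

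Counts were analysed with edgeR 4.0.16 (limma 3.58.1) in R 4.3.3: filterByExpr (minimum count 10, minimum total 15), TMM scaling, group means, robust quasi-likelihood tests and Benjamini-Hochberg adjustment over all genes tested. Each line had its own model, with 13218 genes in Panc1 and 14124 in A549. The lines were compared in a joint model of all 20 libraries with 15058 genes. CPM were computed from the deposited counts. Called means an adjusted p under 0.05. A floor of 3 counts was 0.193 to 0.269 CPM in Panc1 and 0.157 to 0.438 CPM in A549 libraries, and covers counting error only. Replicates differed by more than sampling noise, the chi-square divided by its degrees of freedom being 2.06 to 12.5 among genes averaging 20 counts or more.

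Members and lists were chosen with earlier results of these data known. CDKN1A, MDM2 and GDF15 were named in every comparison, with up to 10 further called members by size of change, and up to 4 called genes of each list; other members are given by range, count or log2 value. Calls that single libraries decided were named for that reason, after their values were seen, as were TP73 in Panc1, DDIT4 in Panc1 and ATF3 in A549 with TGFβ. Alternatives were median-ratio size factors, DESeq2 1.42.0, no filter on low counts, the replicate letter as a block, each library left out, only the 2 groups compared, and 1 model for both lines. The letters gave little sign of pairing: of 18 same-letter pairs in Panc1 and 12 in A549, 2 and 4 had deviations correlated over 0.1. Those in Panc1 were siKLF10 with siKLF10+TGFβ, at 0.45 for A and 0.21 for B. With 2 libraries in each A549 group, A and B give the same value, so the 12 are not independent. Some named items are not reported here. The code was tested on simulated data.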

Additional observations from a re-analysis of the deposited data

Results flagged for a closer look

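The values here differ between conditions or lines by a test of the difference itself (edgeR's quasi-likelihood test, Benjamini-Hochberg adjusted p under 0.05); adjusted p values and the libraries that decide a call are in the report. In Panc1 the TGFβ response after siKLF10 minus the response without it was 2.32 on the log2 scale for CYFIP2, at 3 to 28 counts per library, 0.56 for TP53I3 and 0.55 for PLK2. In A549 the same difference was −0.93 for GDF15, −0.71 for BTG2, −0.64 for DDB2, −0.57 for FDXR, 0.55 for TP53I3, −0.43 for CDKN1A and −0.41 for PLK2.

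The TGFβ effect in Panc1 minus that in A549 was −3.42 for ZNF365, −3.22 for CYFIP2, −1.43 for PLK3, −1.24 for DDB2, −1.01 for TP53I3, −0.97 for TNFRSF10B, −0.95 for GADD45A, −0.88 for SESN2, 0.84 for GDF15 and −0.82 for CDKN1A. CYFIP2 had few counts in Panc1 here and in the next comparison.

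For siKLF10 without TGFβ, the effect in Panc1 minus that in A549 was −2.01 for ZNF365, −1.80 for CDKN1A, −1.56 for CYFIP2, −1.13 for GDF15, −0.93 for TNFRSF10B, −0.85 for FDXR, −0.85 for PHLDA3, −0.61 for FAS, 0.55 for PLK2 and 0.51 for TP53I3. KLF10 RNA itself was lowered by siKLF10 without TGFβ in Panc1 and was not called in A549.

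Under TGFβ, the siKLF10 effect in Panc1 minus that in A549 was 1.46 for PLK2, −1.09 for CDKN1A, −0.91 for TP53INP1, −0.83 for PHLDA3, −0.82 for FDXR, −0.79 for TNFRSF10B, −0.77 for GADD45A, −0.63 for ZNF365, −0.58 for SESN2 and 0.53 for DDB2.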

How the results depend on the processing

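Alternatives were followed for the members called in the main fits and for CDKN1A, MDM2 and GDF15. Of these 4582 values, 4291 kept their side of the threshold, 268 lost a call and 23 gained one. With a call in either fit, 0 reversed direction. Values not called in either fit could change sign, as for MDM2 in the A549 interaction (−0.13 to 0.13). Calls gained by other members are not among the 23. Of 225 calls, 164 were kept under every alternative run. The A549 comparison of siKLF10 with siCont, with 11 members and 2758 genes called, gave 18 members from only the 2 groups compared and 1673 genes with DESeq2, and 7 to 18 members and 1326 to 4040 genes as each library was left out. For siKLF10+TGFβ against TGFβ in A549, 3996 genes became 2649 with DESeq2 and 2237 to 5409 as each library was left out. The A549 interaction, with 7 members and 916 genes, gave 3 members in 1 model over 20 libraries, 554 genes with DESeq2, and 1 to 12 members and 379 to 2685 genes as each library was left out; the Panc1 interaction, with 584 genes, gave 349 to 1035. Leaving out each library, the difference between lines in the siKLF10 effect gave 8 to 14 members and 1570 to 2840 genes (14 and 2597 with all libraries), and under TGFβ 8 to 14 members and 1895 to 3321 genes (13 and 2979). The cause of these changes was not tested. Where an A549 library was left out, the lone sample of its group was assumed to vary like the other groups.

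The replicate block rests on letters that gave little sign of pairing. In Panc1 it called 13, 15, 15, 13 and 2 members for TGFβ, siKLF10, siKLF10 under TGFβ, TGFβ after siKLF10 and the interaction. In A549 it called 18, 13, 12, 20 and 7 in the same order. Between lines it called 24 members in siCont, 27 over the conditions, and 15, 13 and 14 for the effects of TGFβ, siKLF10 and siKLF10 under TGFβ. The share of all genes called with the block is not given here, so these member counts cannot be set against it. DESeq2 gave no adjusted p for the CYFIP2 interaction in Panc1. Depth limits CYFIP2 and SPATA18 in Panc1 and ZNF365 in A549 without TGFβ, which had few counts per library.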

Other observations

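The tables hold rows under C12orf5 and KIAA0247, the older symbols of TIGAR, a fructose bisphosphatase that p53 induces, and SUSD6; they were not counted among the members. C12orf5 stood at 51.3 and 53 CPM in TGFβ and at 38.3 and 34 CPM in siCont A549 libraries (log2 fold change 0.52, edgeR adjusted p = 0.000173), and at 63.6 and 70.6 CPM in siKLF10+TGFβ. KIAA0247 stood at 35 and 28.9 CPM in TGFβ and at 13.9 and 15.1 CPM in siCont A549 libraries (1.16, adjusted p = 1.81e-07). In Panc1 neither was called for TGFβ against siCont. Both were called higher there for siKLF10+TGFβ against siKLF10, C12orf5 by 0.25 (adjusted p = 0.0439) and KIAA0247 by 0.4 (adjusted p = 0.00297). KIAA0247 was also called in Panc1 for siKLF10+TGFβ against TGFβ (0.29, adjusted p = 0.0245).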
